A study of Mus musculus with 33 samples.

Results

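The genes of the GABA-B receptor and of the KCTD proteins bound to it were examined in frontal cortex of mice that had breathed e-cigarette aerosol early in life. The set holds 5 genes, the 2 receptor subunits Gabbr1 and Gabbr2 and the 3 auxiliary subunits Kctd8, Kctd12 and Kctd16, of the 23366 genes in each count table. They were selected on the measured changes: earlier results of these same counts were known, and Kctd16 had there the smallest p-value of all genes in females exposed without nicotine. The changes of the 5 genes against air and between the aerosols are therefore given as a description and support nothing further. All 5 passed the filter on low counts in both sexes, among 15158 genes tested in females and 15293 in males. Levels are given as CPM, a gene's count scaled to the size of its library, and changes as log2 ratios to air from edgeR's quasi-likelihood test.

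RNA-Seq libraries came from 33 C57BL/6 offspring about 1 month old, 16 labelled female and 17 labelled male. Dams and then pups inhaled filtered air, aerosol from a tobacco-flavored e-cigarette holding nicotine at 13 to 16 mg/mL, or aerosol from the same brand with no nicotine. There were 6 air, 5 nicotine and 5 no-nicotine libraries in females, and 6 air, 6 nicotine and 5 no-nicotine libraries in males. The study used 1 pup per litter, each library is 1 animal, and no group carried a transgene. The sexes were sequenced in separate runs and stand in separate tables, so sex and run cannot be told apart.

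GABA-B receptors are the G protein-coupled receptors for GABA, the main inhibitory transmitter of the cortex. The receptor works only as a pair: the subunit encoded by Gabbr1 binds GABA, and the one encoded by Gabbr2 carries the pair to the cell surface and engages Gi/o proteins. The freed beta-gamma dimers open GIRK potassium channels on dendrites and close calcium channels at release sites, while the alpha subunit holds back adenylyl cyclase. KCTD8, KCTD12 and KCTD16 bind the tail of the Gabbr2 product and the G protein, and shape how fast the response starts and fades. KCTD12 speeds desensitization of the potassium current, and KCTD16 links the receptor to further proteins such as HCN channels.

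Total counts ran from 19150562 to 27513174 per library in females and from 17845672 to 24787955 in males. Each of the 33 libraries held at least 163 counts of every one of the 5 genes, and Gabbr1 reached 28921. The library labelled male nicotine replicate 21 held 4632 counts of Xist and 1 Y-linked count. The other 16 libraries labelled male held 1 to 5 counts of Xist and 2140 to 3247 Y-linked counts. Libraries labelled female held 2674 to 3777 counts of Xist and 0 to 3 Y-linked counts, so by these genes replicate 21 was female. It was kept as labelled in the main fits. Member changes, ratios and list counts of the male nicotine group are given with and without it. All 10 markers of cortical glutamatergic neurons were detected in every group, with a summed level of 2640 to 3410 CPM in female air libraries. The 10 striatal projection neuron markers summed to 1148 to 2790 CPM there. Cortical markers would also be detected in cortex mixed with other tissue, so their detection does not check the frontal cortex label.

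The windows around the starts of Gabbr2 and Kctd8 are shown because these genes lay on opposite sides of air, the former lower and the latter higher. RefSeq windows of 300 bases, from 250 before to 50 after the gene's start, were found for 4 of the 5 genes. The Gabbr2 window is at chr4:46991665-46991964 on the minus strand of GRCm38.p6. The Kctd8 window is at chr5:69341660-69341959 on the minus strand of the same build. Capitals mark the cAMP response element TGACGTCA, a palindrome to which CREB, a factor activated by cAMP signaling, binds.
Gabbr2: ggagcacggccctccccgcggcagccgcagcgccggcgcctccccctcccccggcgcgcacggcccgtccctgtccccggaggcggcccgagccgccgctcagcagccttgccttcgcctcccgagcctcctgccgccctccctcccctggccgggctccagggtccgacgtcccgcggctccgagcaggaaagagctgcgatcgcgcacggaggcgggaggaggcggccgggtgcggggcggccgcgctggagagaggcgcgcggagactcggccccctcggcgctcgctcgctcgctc
Kctd8: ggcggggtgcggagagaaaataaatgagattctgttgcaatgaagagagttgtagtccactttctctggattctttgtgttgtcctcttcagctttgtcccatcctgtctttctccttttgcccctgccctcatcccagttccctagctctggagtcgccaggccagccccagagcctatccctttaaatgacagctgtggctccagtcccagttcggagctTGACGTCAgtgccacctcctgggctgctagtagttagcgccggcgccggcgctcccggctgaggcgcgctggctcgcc

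The Kctd8 window held 1 such element, whose first base was at -28 from the gene's start. No match stood in the windows of Gabbr2, Gabbr1 and Kctd12. Of 32851 RefSeq windows of this length searched on both strands, 1.79% held the element. The windows also differed in CG pairs, which numbered 46 in Gabbr2, 45 in Kctd12, 18 in Gabbr1 and 14 in Kctd8, against a median of 7 over all windows. A match of letters is a description and not a site at which a factor was measured.

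Gabbr1 overlapped air in every exposed group. In females its level in air libraries had a lowest value of 1025, a median of 1056 and a highest value of 1092 CPM. The nicotine libraries were at 1016, 1039, 1134, 935 and 997 CPM, and the no-nicotine libraries at 1027, 1046, 1014, 1045 and 1032 CPM. In males the air libraries ran from 916 to 1004 CPM and the exposed libraries from 884 to 1028 CPM. The 4 log2 changes against air lay between -0.04 and 0.02, each within 1 SE of 0 (SE 0.04 in all). The edgeR adjusted p-values were 0.578 and 0.656 in females and 0.866 and 0.867 in males. Without the library labelled replicate 21 the log2 change in males with nicotine was 0.04 (edgeR adjusted p = 0.769).

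Gabbr2, the partner subunit, did not follow it. In female air libraries the lowest Gabbr2 level was 165, the median 179 and the highest 198 CPM. The nicotine libraries were at 123, 120.3, 139.7, 122 and 112 CPM, and the no-nicotine libraries at 147, 101, 122, 124 and 116 CPM. Every exposed female library was below every air library. In male air libraries the lowest value was 162, the median 173 and the highest 174 CPM. The male nicotine libraries ran from 137 to 157 CPM with a median of 149.7 CPM, and the no-nicotine libraries were at 129.8, 115, 108, 110.5 and 135 CPM. Here too each exposed library stood below all 6 air libraries, and the nicotine libraries stood between the other groups without overlap. In a bulk sample, fewer cells expressing a gene and less RNA of it per cell cannot be told apart.

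In females Gabbr2 fell by 31.04% with nicotine (log2 -0.54, SE 0.08, edgeR adjusted p = 0.000827) and fell by 31.8% without nicotine (log2 -0.55, SE 0.08, edgeR adjusted p = 0.000807). In males it fell by 29.7% without nicotine (log2 -0.51, SE 0.06, edgeR adjusted p = 2.14e-05). With nicotine the male change was -0.19 on the log2 scale (SE 0.05) and did not pass the threshold of 0.01 (edgeR adjusted p = 0.0924), and it was -0.18 without the library labelled replicate 21.

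**Figure D1:**
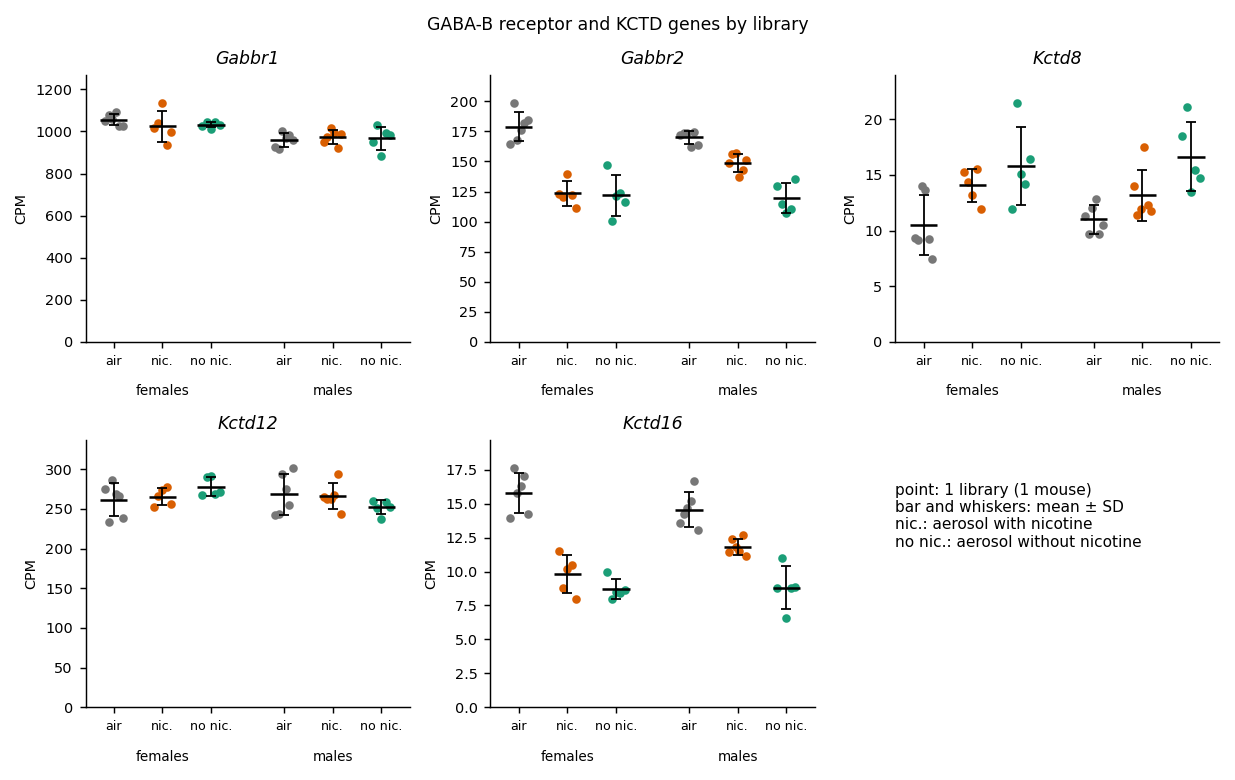
Level (CPM) of the 5 genes in each of the 33 libraries, by sex and exposure (nic., aerosol with nicotine), with bars and whiskers for mean ± SD. Every exposed library of Gabbr2 and Kctd16 lies below the air libraries of the same sex, Kctd8 lies mostly above them, and Gabbr1 and Kctd12 overlap.

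Kctd16 had the lowest values after exposure, relative to air, of the 5 genes. Its lowest level in female air libraries was 13.99, the median 16.0 and the highest 17.6 CPM. The nicotine libraries were at 11.5, 8.80, 10.2, 10.5 and 7.97 CPM, and the no-nicotine libraries at 9.98, 7.997, 8.46, 8.44 and 8.67 CPM. No exposed female library reached the lowest air library. In male air libraries the lowest value was 13.1, the median 14.5 and the highest 16.6 CPM. The male nicotine libraries ran from 11.1 to 12.7 CPM, and the no-nicotine libraries were at 8.79, 11.03, 6.56, 8.81 and 8.86 CPM. The 3 male groups did not overlap one another, although the highest no-nicotine library stood just under the lowest nicotine library.

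Kctd16 fell by 38.2% in females with nicotine (log2 -0.69, SE 0.09, edgeR adjusted p = 0.000709) and fell by 44.9% in females without nicotine (log2 -0.86, SE 0.09, edgeR adjusted p = 0.000388). By p-value it ranked 14 and 1 among the genes tested. In males without nicotine it fell by 39.6% (log2 -0.73, SE 0.10, edgeR adjusted p = 5.2e-05). In males with nicotine the log2 change was -0.30 (SE 0.09, edgeR adjusted p = 0.126), and -0.32 without the library labelled replicate 21. RefSeq lists 2900055J20Rik, a transcript counted separately in these tables and lying just upstream on the same strand, as a synonym of Kctd16. In females its level fell by 40.4% with nicotine (edgeR adjusted p = 0.000816) and fell by 49.9% without (edgeR adjusted p = 0.000388). In males without nicotine it fell by 35.3% (edgeR adjusted p = 0.00492). With nicotine in males its log2 change was -0.20 (edgeR adjusted p = 0.55).

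Kctd8 had the opposite sign. In female air libraries its lowest level was 7.42, the median 9.32 and the highest 14.03 CPM, with replicates 3 and 4 set above the other 4. The nicotine libraries were at 15.2, 14.4, 13.2, 15.6 and 11.9 CPM, and the no-nicotine libraries at 11.98, 21.4, 15.1, 14.2 and 16.4 CPM. Of the female libraries, 3 of 5 with nicotine and 4 of 5 without nicotine were above all air libraries. In male air libraries the lowest value was 9.65, the median 10.9 and the highest 12.9 CPM. The male nicotine libraries ran from 11.4 to 17.5 CPM and overlapped air, while the no-nicotine libraries, at 18.5, 21.1, 13.5, 15.4 and 14.7 CPM, were all above it.

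Kctd8 was higher by 51.5% in males without nicotine (log2 0.60, SE 0.12, edgeR adjusted p = 0.00178). In females without nicotine the log2 change was of like size, 0.58, with a larger error (SE 0.16, edgeR adjusted p = 0.0136). That value passed the threshold only when female air replicate 3, female air replicate 4 or female no nicotine replicate 1 was left out, with adjusted p-values from 0.00502 to 0.0518 over the 16 libraries left out in turn. DESeq2 called it (adjusted p = 0.00283). The log2 changes with nicotine were 0.42 in females (edgeR adjusted p = 0.0988) and 0.26 in males (edgeR adjusted p = 0.337), the male value being 0.28 without the library labelled replicate 21 (edgeR adjusted p = 0.366). A short stretch of its exons is overlapped by AC107770.1 on the other strand.

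Kctd12, by counts the most abundant of the 3 KCTD genes, overlapped air in every group. Female air libraries ran from 234 to 287 CPM and exposed female libraries from 252 to 291 CPM. Male air libraries ran from 242 to 301 CPM and exposed male libraries from 238 to 295 CPM. The 4 log2 changes against air lay between -0.09 and 0.09, and the edgeR adjusted p-values between 0.243 and 0.954. Without the library labelled replicate 21 the log2 change in males with nicotine was -0.04 (edgeR adjusted p = 0.798). In the gene annotation of the authors' build the Kctd12 exons are overlapped over nearly all of their 3805 bases by Gm17446 on the other strand, and with no strand setting stated the reads of the pair cannot be told apart.

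Read against the whole tables, the calls of the 5 genes were as follows, a call being an edgeR adjusted p below 0.01. In females with nicotine 2 of the 5 genes were called, Gabbr2 and Kctd16, both lower, where 4.29% of all genes tested were called, 2.32% lower and 1.98% higher. In females without nicotine the same 2 were called lower, where 12.1% of genes were called, 7.03% lower and 5.03% higher. In males without nicotine Gabbr2 and Kctd16 were called lower and Kctd8 higher, where 13.6% of genes were called, 7.47% lower and 6.15% higher. In males with nicotine edgeR called 0 of the 5 and 0% of all genes, 0% lower and 0% higher. At an unadjusted edgeR p below 0.05 stood 3 of the 5 and 2203 of all genes. DESeq2 also called 0 of the 5 there, but 159 of all genes, so the count over all genes depended on the test. Since the 5 were chosen on these contrasts, nothing is read from the shares.

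Groups did not overlap for Gabbr2 and Kctd16 in each of the 4 comparisons, and for Kctd8 in males without nicotine. Among all genes, groups did not overlap for 6.67% in the female nicotine comparison and for 10.7% in the female no-nicotine comparison. The male shares were 2.05% and 12.4%. With each library of a sex left out in turn, Gabbr2 and Kctd16 stayed called in all 16 fits in females for either aerosol and in all 17 fits in males without nicotine, as did Kctd8 in the latter. Within a sex both exposed groups were set against the same air libraries, so the comparisons are not independent of one another.

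**Figure D2:**
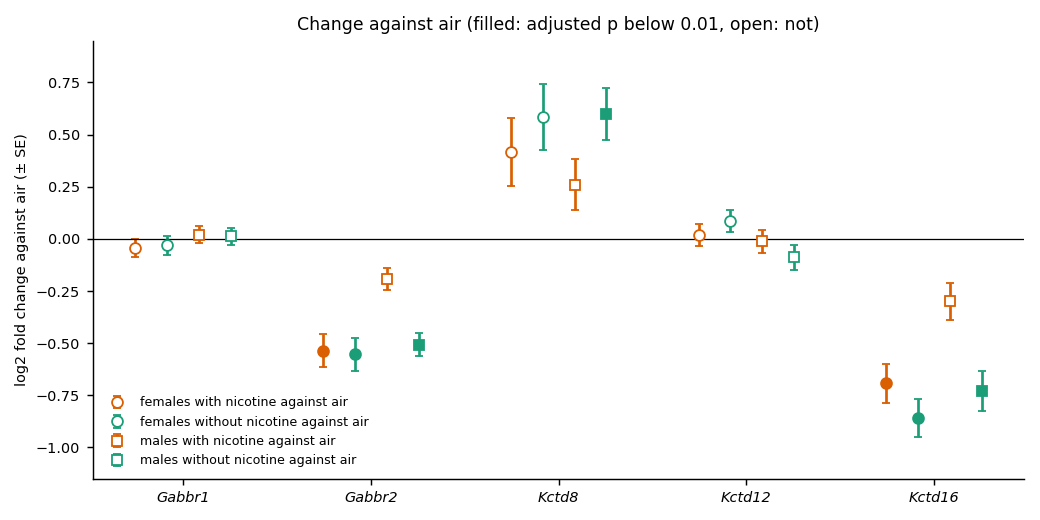
Log2 fold change against air with its standard error for each gene, in females (circles) and males (squares), with nicotine (orange) and without (green); filled symbols passed an edgeR adjusted p below 0.01. Gabbr2 and Kctd16 lie below 0 and Kctd8 above 0 in all 4 comparisons, and the male nicotine values of Gabbr2 and Kctd16, -0.19 and -0.30, lie nearest 0.

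The aerosols were also compared with each other, a contrast that also entered the choice of the 5 genes, so its values are a description too. In females 0 of the 5 genes and 0% of all genes were called by edgeR, 0 of the 5 had an unadjusted p below 0.05, and DESeq2 called 0 of the 5. In males Gabbr2 was higher with nicotine than without by 24.3% (log2 0.31, SE 0.06, edgeR adjusted p = 0.00923), where 0.248% of genes were called, and all 6 nicotine libraries were above all 5 no-nicotine libraries. The call was lost in 14 of 17 fits with 1 library left out, and was kept only without male nicotine replicate 19, male no nicotine replicate 2 or male no nicotine replicate 7 (adjusted p from 0.00116 to 0.029). Without the library labelled male nicotine replicate 21 the adjusted p was 0.018. Kctd16 was also higher in every male nicotine library than in any no-nicotine library, but did not pass (log2 0.43, edgeR adjusted p = 0.0238; without replicate 21 log2 0.41, adjusted p = 0.0512). How many of all genes likewise had no overlap between the male aerosols was not counted, so nothing is read from the lack of overlap. Without that library 5 genes in all were called between the male aerosols, where 38 were called with it. Other libraries moved this count as much. It was 5 without male nicotine replicate 16, 17 or 22, 246 without male nicotine replicate 19, and 0 without male no nicotine replicate 3 or 5.

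Whether the change against air differed between the sexes was tested in 1 model over both tables for 15105 genes. For either aerosol edgeR called 0 of the 5 genes and 0% of all genes, that is 0% with nicotine and 0% without, while 978 and 742 genes had an unadjusted p below 0.05 and DESeq2 called 0 of the 5. With nicotine the female change minus the male change was -0.33 for Gabbr2 (SE 0.09, edgeR unadjusted p = 0.00133, adjusted p = 0.447) and -0.39 for Kctd16 (SE 0.13, edgeR unadjusted p = 0.0055, adjusted p = 0.565). Without the library labelled male nicotine replicate 21 these were -0.35 and -0.36 on the log2 scale (edgeR adjusted p = 0.496 and 0.708). Without nicotine the corresponding log2 differences were -0.04 (SE 0.10) and -0.13 (SE 0.13), and -0.01 (SE 0.21) for Kctd8.

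Because Gabbr1 overlapped air and Gabbr2 did not, the balance of the receptor subunit transcripts moved. The ratio of Gabbr1 to Gabbr2 counts within a library was 5.92 ± 0.42 (SD, n = 6) in female air, 8.32 ± 0.49 (n = 5) with nicotine and 8.60 ± 1.23 (n = 5) without. In males it was 5.65 ± 0.27 (n = 6), 6.56 ± 0.35 (n = 6) and 8.15 ± 0.84 (n = 5). Without the library labelled replicate 21 the male nicotine ratio was 6.58 ± 0.39 (n = 5). In both sexes the highest air library was below the lowest exposed library, 6.39 against 6.97 in females and 5.97 against 6.23 in males.

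The KCTD transcripts shifted among themselves. The ratio of Kctd16 to Kctd8 counts was 1.58 ± 0.36 in female air, 0.697 ± 0.067 with nicotine and 0.578 ± 0.166 without. In males it was 1.34 ± 0.22, 0.921 ± 0.157 and 0.531 ± 0.054 (SD, same n), the nicotine value being 0.899 ± 0.165 (n = 5) without replicate 21. All air libraries had more Kctd16 than Kctd8 counts, and all no-nicotine libraries had fewer. Kctd16 made up 5.53% of the counts of the 3 KCTD genes in female air and 2.89% without nicotine, while Kctd8 made up 3.61% and 5.20%. Kctd12 held 90.9% in female air and 91.9% without nicotine, so the pool was mostly Kctd12 in either case. These ratios are made of the counts on which the genes were chosen and were not tested.

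**Figure D3:**
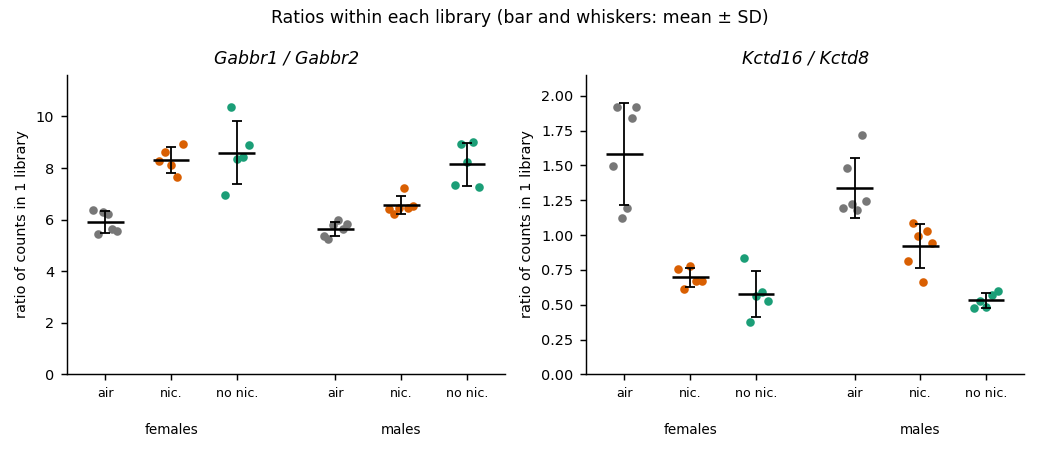
Ratio of Gabbr1 to Gabbr2 counts and of Kctd16 to Kctd8 counts within each library, by sex and exposure, with mean ± SD. The first ratio is above and the second below the air libraries of the same sex in every exposed library, and in males the nicotine libraries lie between the other groups.

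Levels of different genes were compared per length of the longest annotated transcript, in the NCBIM37 (mm9) build. Gabbr1 lies on chromosome 17, from 37182911 to 37212012, on the plus strand. Gabbr2 lies on chromosome 4, from 46675190 to 47004745, on the minus strand. Kctd8 lies on chromosome 5, from 69500524 to 69732948, and Kctd12 on chromosome 14, from 103377437 to 103381745, both on the minus strand. Kctd16 lies on chromosome 18, from 40418015 to 40690757, on the plus strand.

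In female air libraries the level was 201 ± 5.07 CPM per kb for Gabbr1, 68.8 ± 5.48 for Kctd12, 31.2 ± 2.14 for Gabbr2, 12.3 ± 1.14 for Kctd16 and 3.63 ± 0.93 for Kctd8 (SD, n = 6). In male air libraries the order was the same, with 183, 70.5, 29.6, 11.3 and 3.81 CPM per kb. The ranges of neighbors in this order did not overlap in either sex. The Kctd16 model in that annotation is 1284 bases of coding sequence alone, so its place in the order rests on that length, and a longer model was not tried. Over the 6057-base RefSeq span the Kctd12 level would be 43.2 CPM per kb in female air, which keeps its place. Of the 36-base windows of the members, 0.152% in Gabbr1 and 0.172% in Gabbr2, and 0% in the KCTD genes, occurred in coding transcripts of other genes.

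To set the 5 genes beside the rest of their pathway, a list of 70 genes of the same pathway was followed, all of them measured. It was drawn up with earlier results of these counts known. In females with nicotine 15 of 70 were called, 10 lower and 5 higher, and in females without nicotine 26, 20 lower and 6 higher. In males without nicotine 27 were called, 18 lower and 9 higher. These are 21.4%, 37.1% and 38.6% of the list, where 4.29%, 12.1% and 13.6% of all genes were called. In males with nicotine edgeR called 0, with 31 at an unadjusted p below 0.05, and DESeq2 called 3 of the list and 159 of all genes. Without the library labelled replicate 21 edgeR called 0, with 25 at that unadjusted p. Between the aerosols edgeR called 0 in females, with 7 at an unadjusted p below 0.05 and 0 by DESeq2, and in males Cacna1a alone, higher with nicotine, where 0.248% of all genes were called. In males DESeq2 called 9 of the list and 456 of all genes. Without replicate 21 edgeR called 0 there, with 26 at an unadjusted p below 0.05. The median log2 change of the list was -0.10, -0.09, -0.04 and -0.08 in females with and without and males with and without nicotine, against 0.00, 0.01, 0.01 and 0.02 over all genes tested. The count in females with nicotine ranged from 4 to 22 when single libraries were left out, being 8 without female air replicate 5 or 6, and 5, 4 and 6 without female nicotine replicates 1, 2 and 6. The count of all genes moved in the same fits, from 226 to 920 against 651 with all libraries. It was 351 and 304 without female air replicates 5 and 6, and 279, 226 and 265 without female nicotine replicates 1, 2 and 6.

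The GIRK channels, which carry the postsynaptic potassium current of the receptor, had calls for 3 of 4 genes in females with either aerosol and for 4 of 4 in males without nicotine. Kcnj3, Kcnj6 and Kcnj9, which encode the neuronal subunits GIRK1, GIRK2 and GIRK3, fell in 3 comparisons. In females with nicotine their log2 changes were -0.67, -0.78 and -0.64, with edgeR adjusted p-values of 0.00379, 0.00356 and 0.0014. Without nicotine they were -0.79, -0.92 and -0.74 in females and -0.81, -0.98 and -0.59 in males, with edgeR adjusted p-values of at most 0.000934. In males with nicotine the values were -0.37, -0.43 and -0.28, and none passed. Kcnj5, which encodes the subunit known best from heart, went the other way. It rose in males without nicotine by 1.09 on the log2 scale (SE 0.24, edgeR adjusted p = 0.00298), and its log2 changes elsewhere were 0.87, 1.24 and 0.59.

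The presynaptic calcium channel genes were lower as well. Cacna1a, Cacna1b and Cacna1e, the pore subunits of P/Q-, N- and R-type channels, fell in females without nicotine by 0.52, 0.31 and 0.34 on the log2 scale and in males without nicotine by 0.47, 0.33 and 0.44. In females with nicotine Cacna1b fell by 0.40 on the log2 scale (edgeR adjusted p = 0.000816), and Cacna1a and Cacna1e stood at -0.38 and -0.28 without passing. Of the 7 adenylyl cyclases, the enzymes that Gi/o proteins hold back, Adcy9 was the 1 called in females with nicotine, at -0.38 on the log2 scale, while Adcy1 stood at -0.70 there without passing (edgeR adjusted p = 0.0335). Adcy1, Adcy2 and Adcy9 fell in females without, at -1.01, -0.27 and -0.54, and Adcy1 and Adcy9 in males without, at -0.67 and -0.38.

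Of the 14 G protein subunits 3, 3 and 4 were called in females with, females without and males without nicotine, which is 21.4%, 21.4% and 28.6% against 4.29%, 12.1% and 13.6% of all genes. Gnao1, the most abundant G protein alpha subunit of brain, fell by 0.25 on the log2 scale in females without nicotine (edgeR adjusted p = 0.00423), as did Gnai1 by 0.26 (edgeR adjusted p = 0.00887), and both missed the threshold in the other comparisons. Gnaz fell in 3 comparisons by 0.29 to 0.33 on the log2 scale. Gng2 fell by 0.36 in females with nicotine and by 0.28 in males without, where Gnb1 fell by 0.20. Gng7, a gamma subunit abundant in striatum, rose by 0.69 and 0.70 in those same comparisons. Of 6 RGS genes, whose products end the G protein signal, Rgs4, Rgs6 and Rgs7 fell in females without nicotine, at -0.82, -0.52 and -0.34, and Rgs6 and Rgs7 in males without, at -0.57 and -0.40, where Rgs4 stood at -0.25 (edgeR adjusted p = 0.312). Among 6 kinases acting on the receptor, Prkaa2, the AMP-activated kinase subunit, fell by 0.38, 0.50 and 0.51 in the 3 comparisons with calls, and Camk2a fell by 0.59 and 0.50 in the no-nicotine comparisons.

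GABA synthesis and transport was the group in which all called genes were higher. Gad2, which makes GABA, and Slc32a1, which loads it into vesicles, rose by 0.62 and 0.60 on the log2 scale in females with nicotine, by 0.79 and 0.74 in females without and by 0.65 and 0.71 in males without. The transporter Slc6a11 rose by 0.88 and 0.74 without nicotine in females and males. Abat, which degrades GABA, rose by 0.36 in females with nicotine, 0.44 in females without and 0.46 in males without. Gad1 rose in females without nicotine by 0.44 (edgeR adjusted p = 0.00215), and stood at 0.33 in females with and 0.35 in males without nicotine without passing. Whether it differed between these comparisons was not tested. In males with nicotine these genes had log2 changes from 0.21 to 0.40, none called. Gad1, Gad2 and Slc32a1 also stand in the interneuron marker list given further on.

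Of 6 genes of proteins that bind the receptor 1, 1 and 2 were called in females with, females without and males without nicotine, which is 16.7%, 16.7% and 33.3% against 4.29%, 12.1% and 13.6% of all genes. App, Ajap1 and Pianp, whose products bind the outer part of the Gabbr1 product, passed in none of the 4 comparisons, with log2 changes from -0.19 to 0.13. Mpdz, a scaffold protein, was the 1 called in females, at -0.28 with and -0.22 without nicotine, and in males without nicotine it stood at -0.38 beside Nsf at -0.32. Among 18 other KCTD genes 2, 3 and 3 were called in those comparisons, or 11.1%, 16.7% and 16.7%, the latter shares near those of all genes, with Kctd9 higher by 0.64, 0.85 and 0.47 on the log2 scale and Kctd3 lower by 0.20 to 0.23. The third was Kctd1 in females without nicotine, at -0.40, and Kctd5 in males without, at 0.20. Kctd12b, a paralog of Kctd12, had log2 changes from 0.01 to 0.18 and no call.

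**Figure D4:**
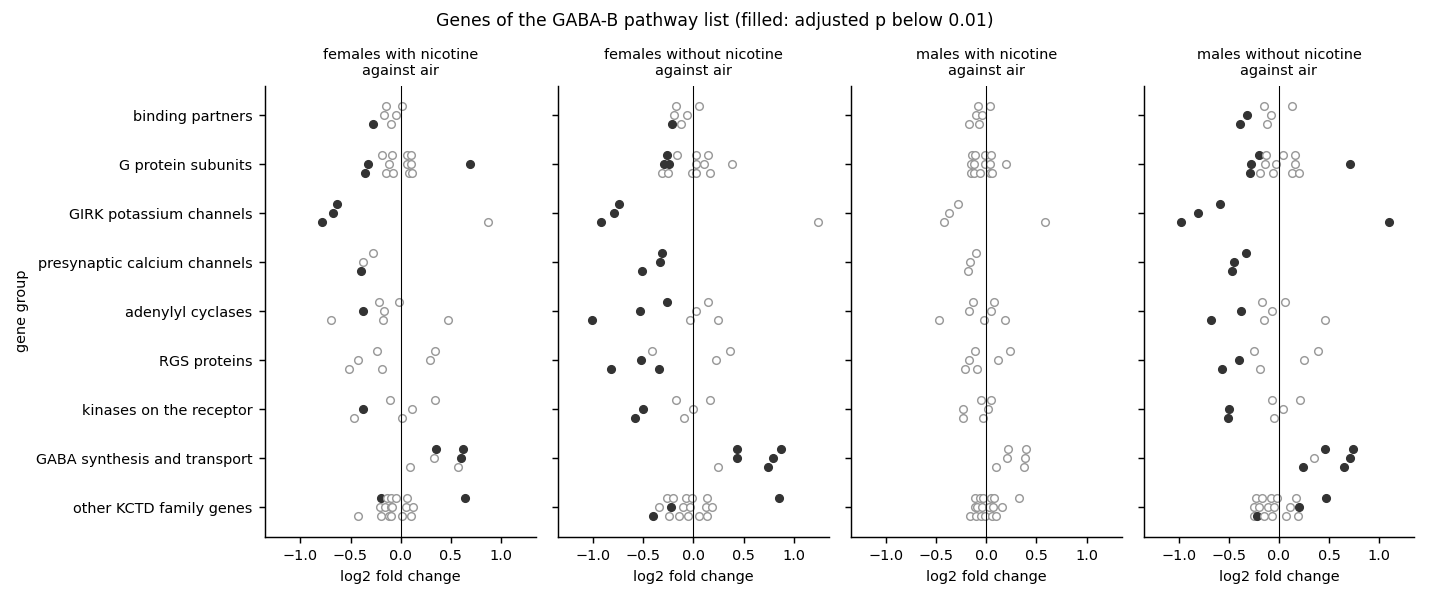
Log2 fold change against air of the 70 pathway genes, 1 point per gene, by gene group and comparison, with filled points past an edgeR adjusted p below 0.01. The 3 neuronal GIRK genes and the calcium channel genes lie below 0 and the GABA synthesis and transport genes above 0, and no point is filled in males with nicotine.

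Markers of cell types moved in the same libraries. The mean log2 level of the 10 cortical glutamatergic markers was 6.10 in female air, 5.25 with nicotine and 4.95 without, and 5.90, 5.45 and 4.89 in males. Of these 10 markers 1 fell in females with nicotine (all 10 at an edgeR unadjusted p below 0.05, DESeq2 5), 9 in females without, 0 in males with (8 at an edgeR unadjusted p below 0.05, DESeq2 0) and 9 in males without. All 7 oligodendrocyte markers and all 6 basal forebrain cholinergic markers rose in both female groups and in males without nicotine. The summed cortical level was 2640 to 3410 CPM in female air libraries and 1061 to 2565 CPM in exposed ones, and 2539 to 3033 and 845 to 2531 CPM in males. The summed oligodendrocyte level was 8317 to 10049 CPM in female air libraries and 11166 to 17392 CPM in exposed female libraries, and 9603 to 11828 CPM in male air, 9845 to 15222 with and 14077 to 24094 CPM without nicotine in males. The summed striatal level was 1148 to 2790 CPM in female air, 2542 to 3468 with and 2205 to 2788 CPM without nicotine. In males it was 1600 to 2806 CPM in air, 1782 to 3570 with and 1908 to 5105 CPM without nicotine. In males with nicotine edgeR called 0 markers of every list, with 6 cholinergic, 5 interneuron, 0 striatal and 0 oligodendrocyte markers at an unadjusted p below 0.05, and DESeq2 called 6, 1, 0 and 0 of them. Without the library labelled replicate 21 these unadjusted counts were 6, 4, 4 and 0, with 6 cortical markers, and the mean cortical level was 5.45 as before. Of 10 striatal projection neuron markers 3, 1, 0 and 2 rose in females with, females without, males with and males without nicotine, with 10, 8, 0 and 10 at an edgeR unadjusted p below 0.05, and of 8 interneuron markers 3, 6, 0 and 4 were called, in both directions. Markers of astrocytes, microglia and endothelium had 0 edgeR calls against air, with at most 2 of a list at an unadjusted p below 0.05 and at most 1 called by DESeq2. In males without nicotine 2 of 4 choroid plexus markers rose (1 without the library labelled male nicotine replicate 21), with 1 library at a summed level of 899 CPM. No marker was at 0 in a whole group.

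The changes of the members were refitted with a marker score as a covariate. With the cortical score, Gabbr2 stood at -0.24 and -0.16 on the log2 scale in females with and without nicotine and at -0.39 in males without. Kctd16 stood at -0.42, -0.48 and -0.93, and Kctd8 at 0.16, 0.22 and 0.10. None of these passed, with edgeR adjusted p-values from 0.0286 to 0.92. Of all genes tested, 0, 0 and 13 were called in these comparisons with the cortical score, against 651, 1829 and 2084 without a covariate. With the striatal score, chosen after the data were seen, Gabbr2 and Kctd16 were called in females without nicotine (log2 -0.49 and -0.87) and in males without (log2 -0.48 and -0.85), and Kctd8 in none. Of all genes 229 and 1257 were called in these comparisons with that score, and 0 in females with nicotine. In females with nicotine they did not pass with that score, at -0.44 and -0.70 (edgeR adjusted p = 0.0804 and 0.0462), and Kctd8 stood at -0.02 there and at 0.29 and 0.36 without nicotine. With the oligodendrocyte score, chosen in the same way, none was called, and 0 of all genes were called in any of these comparisons. Kctd16 then stood at -0.46, -0.67 and -0.64 in females with, females without and males without nicotine, Gabbr2 at -0.17, -0.25 and -0.30, and Kctd8 at -0.09, 0.14 and 0.48. The scores differ between the groups themselves, and the part of the tissue's cell makeup in these changes was not tested.

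**Figure D5:**
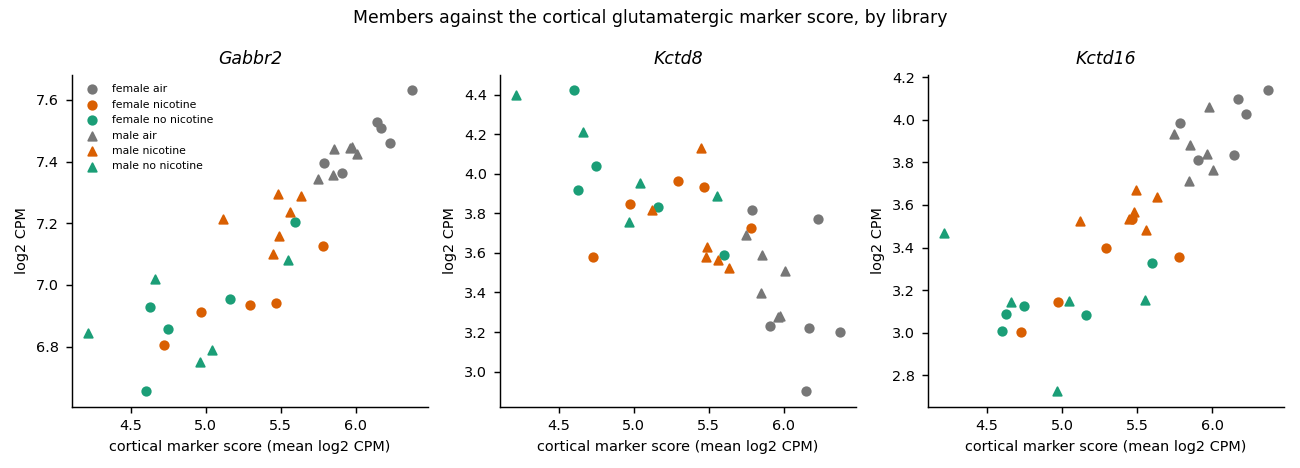
Log2 CPM of Gabbr2, Kctd8 and Kctd16 against the mean log2 CPM of 10 cortical glutamatergic markers, 1 point per library (circles female, triangles male; gray air, orange nicotine, green no nicotine). Air libraries hold the highest scores, and Gabbr2 and Kctd16 lie lower and Kctd8 higher at low scores.

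Relations in air libraries alone, where no exposure enters, were added after the data were seen. Over the 6 female air libraries Gabbr2 and the cortical score had r = 0.88 (exact permutation p = 0.0278) and rho = 0.71 (exact permutation p = 0.136), and r = 0.73 without the 2 libraries farthest from the median score. Over the 6 male air libraries these were r = 0.78 (exact permutation p = 0.0736), rho = 0.66 (exact permutation p = 0.175) and r = 0.64. Kctd8 and the striatal score had r = 0.83 (exact permutation p = 0.0556) and rho = 0.83 (exact permutation p = 0.0583) in females and r = 0.71 (exact permutation p = 0.133) and rho = 0.83 (exact permutation p = 0.0583) in males, where r was -0.26 without the 2 farthest libraries, so that the male value rests on those. Kctd12 and the striatal score had r = 0.85 (exact permutation p = 0.0472), rho = 0.71 (exact permutation p = 0.136) and r = 0.86 without the farthest 2 in females. In males these were r = 0.40 (exact permutation p = 0.407), rho = 0.26 (exact permutation p = 0.658) and r = -0.02. Kctd16 and the cortical score had r = 0.57 (exact permutation p = 0.238), rho = 0.77 (exact permutation p = 0.103) and r = 0.69 in females, and r = -0.0036 (exact permutation p = 0.997), rho = -0.029 (exact permutation p = 1) and r = 0.68 in males. Kctd12 and the cortical score had r = -0.79 in females and -0.75 in males, with rho = -0.77 in both, and r = -0.43 and -0.97 without the farthest 2. In females and males, r with the cortical score was -0.35 and -0.69 for Kctd8 and 0.22 and -0.46 for Gabbr1. With the striatal score r was 0.26 and 0.76 for Gabbr1, -0.64 and -0.27 for Gabbr2, and 0.09 and 0.60 for Kctd16. Of 20 such relations none passed after Benjamini-Hochberg adjustment, the lowest adjusted p being 0.278 for r and 0.34 for rho in these permutation tests.

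The genes most like each member were taken by the lower of its correlations over the 16 female and the 17 male libraries, among 12798 genes. For Gabbr2 these included Rtn4rl1, Zbtb18 and Pgm2l1, with a lower r of 0.95 to 0.97. For Kctd16 they were Tanc2, Tmod2, Usp12 and Reps2, at 0.90 to 0.91, and for Kctd8 P2ry1, Inpp5f, Fndc9 and Pard3, at 0.89 to 0.91. For Gabbr1 they were Ap1s1, Vgf, Rxrb and Asphd2, at 0.73 to 0.78, and for Kctd12 Zfp120, Ssbp2, Tfam and Ispd, at 0.52 to 0.55. Without the library labelled male nicotine replicate 21 the last 4 were at 0.45 to 0.55. The libraries of a sex share a sequencing run and hold 3 exposure groups, so the values describe common variation across groups and libraries alike.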

How the data were processed

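Frontal cortex RNA was sequenced as single reads. Per the study's methods the authors mapped reads to the mm9 mouse transcriptome with Bowtie (up to 2 mismatches), removed PCR duplicates with SAMtools, counted reads per gene with HTSeq and left out outlying samples found by principal components. They deposited raw read counts, 1 table per sex, and the same counts divided by size factors, which were not used here. Removing duplicates from single reads lowers the counts of abundant genes most. The tables held 34 sample columns, of which 33 were matched to labels by name and 1 was not used here. The authors' strand setting is not given in the sources used here.

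The counts were tested with edgeR 4.0.16 in R 4.3.3 (TMM normalization, quasi-likelihood test, 1 model of 3 groups per sex). Genes were kept where CPM summed over the libraries of a sex reached 5. Benjamini-Hochberg adjustment ran over all genes kept, with a threshold of 0.01. CPM used the TMM-scaled library sizes, log2 CPM a prior count of 1, and SE is the size of the log2 fold change divided by the square root of F. The change was compared between sexes as an interaction over both tables. Alternatives were DESeq2 1.42.0, other scalings, no filter, 2-group fits, marker covariates, each library left out and, in females, a replicate block. The models were tested on simulated data.

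Named genes were the 5 members, 17 pathway genes, called genes of a pathway group with at most 5 calls, genes overlapping or next to a member, and the 4 genes most like each member; other named genes were chosen after their values were seen. Some genes under this rule are not reported here. The members, lists and markers were chosen with earlier results of these data known. Replicates are separate animals per the labels and methods. Over 75 pairs of libraries of a group, chi-square per degree of freedom was 4.46 to 30.9, so none was counted as a repeat. Promoter sequences are RefSeq's (GRCm38.p6) and gene models GENCODE's for NCBIM37.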

Additional observations from a re-analysis of the deposited data

How the results depend on the processing

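Calls of the 5 genes were the same in number under other size factors, upper quartile scaling and no filter, with a shift in the median of all genes of at most 0.02 on the log2 scale. DESeq2 called 24 pathway genes in females and 3 in males with nicotine against air, and 2 members, Gabbr2 and Kctd16, between the aerosols in males. Of all genes it called 1319, 159 and 456 in these comparisons, where edgeR called 651, 0 and 38. Fits of only the 2 groups compared called 1 pathway gene in males with nicotine and 0 members between the male aerosols, where 17 and 0 of all genes were called. With the cortical or the oligodendrocyte score as a covariate, 0 members and 0 pathway genes were called in both female comparisons and in males without nicotine, and 0 members between the male aerosols. Of all genes, 0, 0, 13 and 7 were called in these comparisons with the cortical score. With the oligodendrocyte score 0 of all genes were called in each. With the striatal score 0 members and 0 pathway genes were called in females with nicotine (Kctd16 at -0.70 and Gabbr2 at -0.44), 7 pathway genes in females without, and 0 members between the male aerosols. Of all genes 0, 229 and 6 were called in these comparisons. In males without nicotine that score left calls for 25 pathway genes and 1257 of all genes. The oligodendrocyte and striatal covariates were chosen after seeing the data, as were the correlations in air libraries and the counts and ratios without male nicotine replicate 21. With the cortical score Adcy1 turned to 0.10 in females without nicotine and Gad2 to -0.019 in males without. The cause was not tested. Leaving out single libraries gave 4 to 22 pathway calls in females with nicotine, 17 to 31 in females without (17 without female no nicotine replicate 2), and 0 to 1 members between the male aerosols. Of all genes 226 to 920, 833 to 2488 and 0 to 246 were called in those fits. Among the members 13 log2 values changed sign, none of them called in either fit.

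The 14 pairs of same-numbered female libraries had correlations from -0.27 to 0.27, of which 4 were over 0.1, and 7 of 16 libraries correlated best with their own number, a hint from the data only; the numbers were not taken to pair the libraries. The fit with the replicate block, on the 12 libraries of 4 shared numbers, called 0 members and 0 pathway genes in either female comparison against air, where 2 (with nicotine) and 0 (without) of all genes were called, with Kctd16 at -0.65 and -0.88 and Gabbr2 at -0.50 and -0.56 on the log2 scale. Male numbers are not shared between groups, so no paired analysis was made there.

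Kctd8 and Kctd16 rest on 163 to 485 counts per library, and Gabbr1 on 17340 to 28921.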
